A study of Mus musculus with 18 samples.

Results

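A module of 47 extracellular matrix and stellate cell genes was followed through 18 polyA RNA-seq libraries made from livers of C57BL/6J wild-type mice. The members were given as a list of gene symbols, and each gene is represented by its RefSeq transcript with the highest mean level. All 47 were found among the 23532 genes of the deposited table. The libraries form 6 groups of 3, named HF+CR, HF+Ex, HF, LF+CR, LF+Ex and LF, and the labels give no genetic change or other agent in any of them. HF+CR, HF+Ex and HF mice were on the HF diet with CR, with Ex or with neither, and LF+CR, LF+Ex and LF mice were the corresponding groups on the LF diet. In all 6 groups treatment began at 5 weeks of age and the liver was taken at 62 weeks. HF, LF, CR and Ex are read here as high-fat diet, low-fat diet, caloric restriction and exercise from general knowledge, because only the abbreviations are in the labels. Neither the sex of the mice nor a statement that each library is 1 animal is in the labels, so the p-values reflect the spread between these samples alone.

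The extracellular matrix is the protein scaffold outside cells. In the liver it comprises fibrillar collagens around portal tracts and central veins and a loose basement-membrane-like matrix along the sinusoids. Hepatic stellate cells sit between the sinusoidal endothelium and the hepatocytes, store vitamin A as retinyl esters and, once activated to myofibroblasts by signals such as TGF beta and PDGF, secrete fibrillar collagens, crosslinking enzymes and protease inhibitors. Portal fibroblasts and vascular smooth muscle cells share much of this programme. Hepatocytes secrete plasma fibronectin and other matrix proteins, so not every member is a product of stellate cells.

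Levels are RPKM as deposited, read numbers normalised for the length of the transcript and the size of the library, and library values are given in the order of replicates 1, 2 and 3. Differences are of log2(RPKM + 1) with the standard error (SE) and the Benjamini-Hochberg adjusted p of limma over 10356 genes, and a gene was called at an adjusted p under 0.05. Between 9069 and 9997 genes per library reached 1 RPKM. The steps between the lowest values gave an estimate of 22.1 to 42.4 M reads per library, with a median of 26.2 M. The hepatocyte gene Alb was listed at 0 in all libraries but HF 1 and the 3 HF+Ex libraries, while the 8 hepatocyte markers summed to at least 15830 RPKM everywhere, so a listed 0 in these data does not show absence. Transcripts of 10 pancreatic enzymes summed to 1832 RPKM in LF+CR 1 and 321.5 RPKM in HF+CR 1. Their sum was 37.0 RPKM in LF+Ex 1, 38.6 RPKM in HF+CR 2, where Cela1 made up nearly all of it, and at most 12.65 RPKM in any other library. Bile duct markers were highest in HF+CR 3, with a sum of 186 RPKM, and in LF 2, with 161 RPKM, and summed to at most 85.2 RPKM elsewhere. Most of these sums was Spp1, the osteopontin gene, which macrophages and activated stellate cells express too, at 155 RPKM in HF+CR 3 and at 138 RPKM in LF 2. The other 11 bile duct markers summed to 30.4 RPKM in HF+CR 3, to 22.5 RPKM in LF 2 and to at most 16.98 RPKM elsewhere. Counts are also given without HF+CR 1, LF+CR 1 and LF+Ex 1, and without HF+CR 3 and LF 2, where that changes them.

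Of the 47 members, 42 passed the filter of at least 1 RPKM in at least 3 libraries and were tested. Col5a2, Fbn1, Lox, Thbs1 and Timp1 did not pass. A member whose level reaches 1 RPKM only in the groups where it is high could pass only through those groups, so counts and medians over the tested members are descriptions. Eln passed with exactly 3 libraries, and Col15a1 and Loxl1 with 5 each. By mean level 9 members lay over 10 RPKM, 29 between 1 and 10 RPKM and 9 under 1 RPKM. By the transcript used, the most abundant per length were Col18a1, Fn1, Lgals1, Dcn, Bgn, Ecm1, Sparc, Vim and Mmp14. In bulk tissue, fewer cells of a type and less RNA per cell cannot be told apart.

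Single libraries stood apart within their groups before any comparison was made. HF+CR 3 was the highest of all 18 libraries for 19 of the 42 tested members and the highest of its group for 36. Its level was over 2 times the mean of HF+CR 1 and HF+CR 2 for 23 members, with a median ratio of 2.08, against 1.08 over all genes tested. LF 2 was the highest library for 10 members and the highest of its group for 36, with a median ratio to the other LF libraries of 1.72, against 1.15 over all genes. LF 3 was the lowest of its group for 37 members. The members with the largest excess in HF+CR 3 were Col5a2, at 20.1 times the mean of the other HF+CR libraries, Col1a1 at 14.5 times, Loxl1 at 8.28 times, Eln at 8.14 times and Lum at 8.02 times. The excess was uneven within roles: among fibrillar collagens that of Col5a1 was 1.67 times, and among elastic fibre genes that of Loxl2 was 3.3 times. HF+CR 3 lay below the mean of the other HF+CR libraries for the vitamin A gene Lrat, at a ratio of 0.897, for Reln at 0.827, for the smooth muscle actin gene Acta2 at 0.639 and for the abundant members Fn1 at 0.815, Col18a1 at 0.875 and Ecm1 at 0.640. Portal fibroblast markers outside the module summed to 26.1 RPKM in HF+CR 3 and to at most 12.5 RPKM in any other library. Their part in the levels of that library was not tested.

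**Figure D1:**
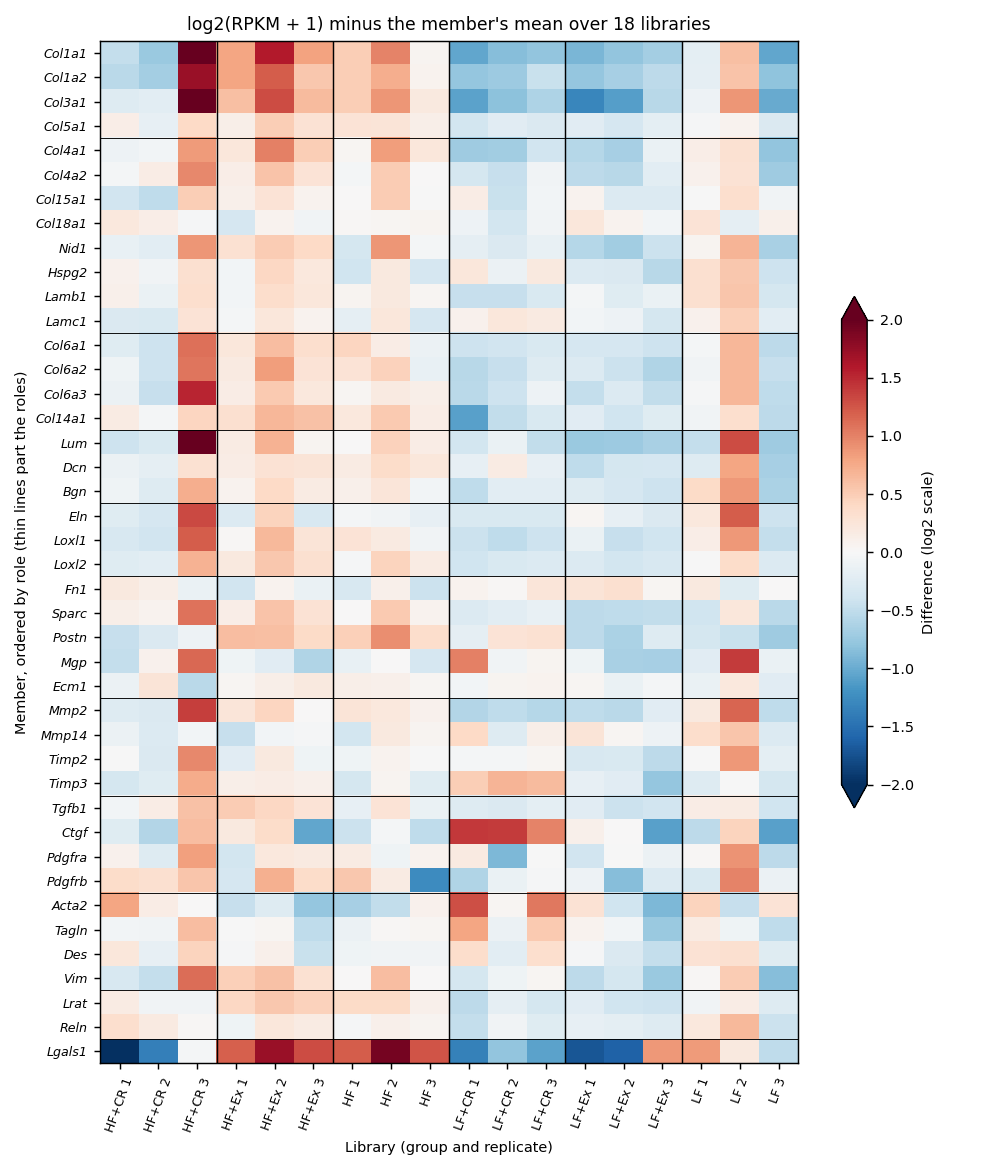
Levels of the 42 tested members in each of the 18 libraries, as log2(RPKM + 1) minus the member's mean over the libraries, with members ordered by role down the page and libraries grouped as HF+CR, HF+Ex, HF, LF+CR, LF+Ex and LF from left to right. HF+CR 3 is the highest of the 18 libraries for 19 members and LF 2 for 10, and both stand apart from the other libraries of their groups.

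The fibrillar collagens form the tensile fibres of scar and portal tissue. Col1a1 and Col1a2 encode the chains of type I collagen, Col3a1 encodes type III collagen, and Col5a1 and Col5a2 encode type V collagen, which regulates fibril diameter. Col1a1 had 0.946, 0.627 and 11.4 RPKM in HF+CR livers, 3.68, 7.13 and 3.73 RPKM in HF+Ex livers and 2.82, 4.37 and 1.81 RPKM in HF livers. It had 0.319, 0.507 and 0.565 RPKM in LF+CR livers, 0.433, 0.567 and 0.685 RPKM in LF+Ex livers and 1.36, 3.12 and 0.3199 RPKM in LF livers. Each HF+Ex library lay above each LF+Ex library, while HF and LF libraries overlapped, and HF+CR 3 was the highest of all. The log2 difference of HF+Ex against LF+Ex was 1.86 ± 0.58 (SE, adjusted p = 0.0732), which was not called. For Col1a2 the levels were 1.58, 1.36 and 11.4 RPKM in HF+CR livers, 5.53, 7.704 and 4.51 in HF+Ex livers and 4.32, 5.25 and 2.97 in HF livers. On the LF diet they were 1.203, 1.28 and 1.77 RPKM in LF+CR livers, 1.22, 1.38 and 1.62 in LF+Ex livers and 2.32, 4.64 and 1.16 in LF livers. HF+Ex libraries again lay above all LF+Ex libraries, with a log2 difference of 1.501 ± 0.48 (adjusted p = 0.079). In HF+CR livers Col3a1 was at 4.52, 4.71 and 26.8 RPKM, in HF+Ex livers at 9.1, 15.3 and 9.27 RPKM and in HF livers at 8.27, 11.3 and 6.62 RPKM. LF+CR livers had 2.15, 2.74 and 3.296 RPKM, LF+Ex livers 1.68, 2.09 and 3.53 RPKM and LF livers 5.18, 11.2 and 2.28 RPKM. HF+Ex and HF+CR libraries each lay above all libraries of the LF group with the same treatment. Neither difference was called, at 1.83 ± 0.53 (adjusted p = 0.0571) for HF+Ex against LF+Ex and 1.37 ± 0.53 (adjusted p = 0.114) for HF+CR against LF+CR.

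Levels of Col5a1 were 1.19, 0.785 and 1.65 RPKM in HF+CR livers, 1.18, 1.83 and 1.44 RPKM in HF+Ex livers and 1.42, 1.41 and 1.18 RPKM in HF livers. The values were 0.5503, 0.709 and 0.633 RPKM in LF+CR livers, 0.7104, 0.59 and 0.752 RPKM in LF+Ex livers and 0.965, 1.11 and 0.634 RPKM in LF livers. HF+Ex livers lay above LF+Ex livers without overlap, and Col5a1 rose in HF+Ex against LF+Ex by 0.55 ± 0.15 (adjusted p = 0.0438). That call was lost without any one of 13 libraries, all of the LF+CR, LF+Ex and HF+Ex libraries and LF 1, HF 1, HF 3 and HF+CR 1, where the adjusted p was 0.0531 to 0.170. Col5a2 was not tested, at 8.57 RPKM in HF+CR 3 and at most 1.62 RPKM elsewhere. The spread that these tests use holds HF+CR 3, whose own level does not enter HF+Ex against LF+Ex. Without that library the same differences were called for Col1a1 (adjusted p = 0.00852), Col1a2 (0.00870) and Col3a1 (0.0122), and Col3a1 was also called without LF 2 (0.0395) or LF 3 (0.0399).

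**Figure D2:**
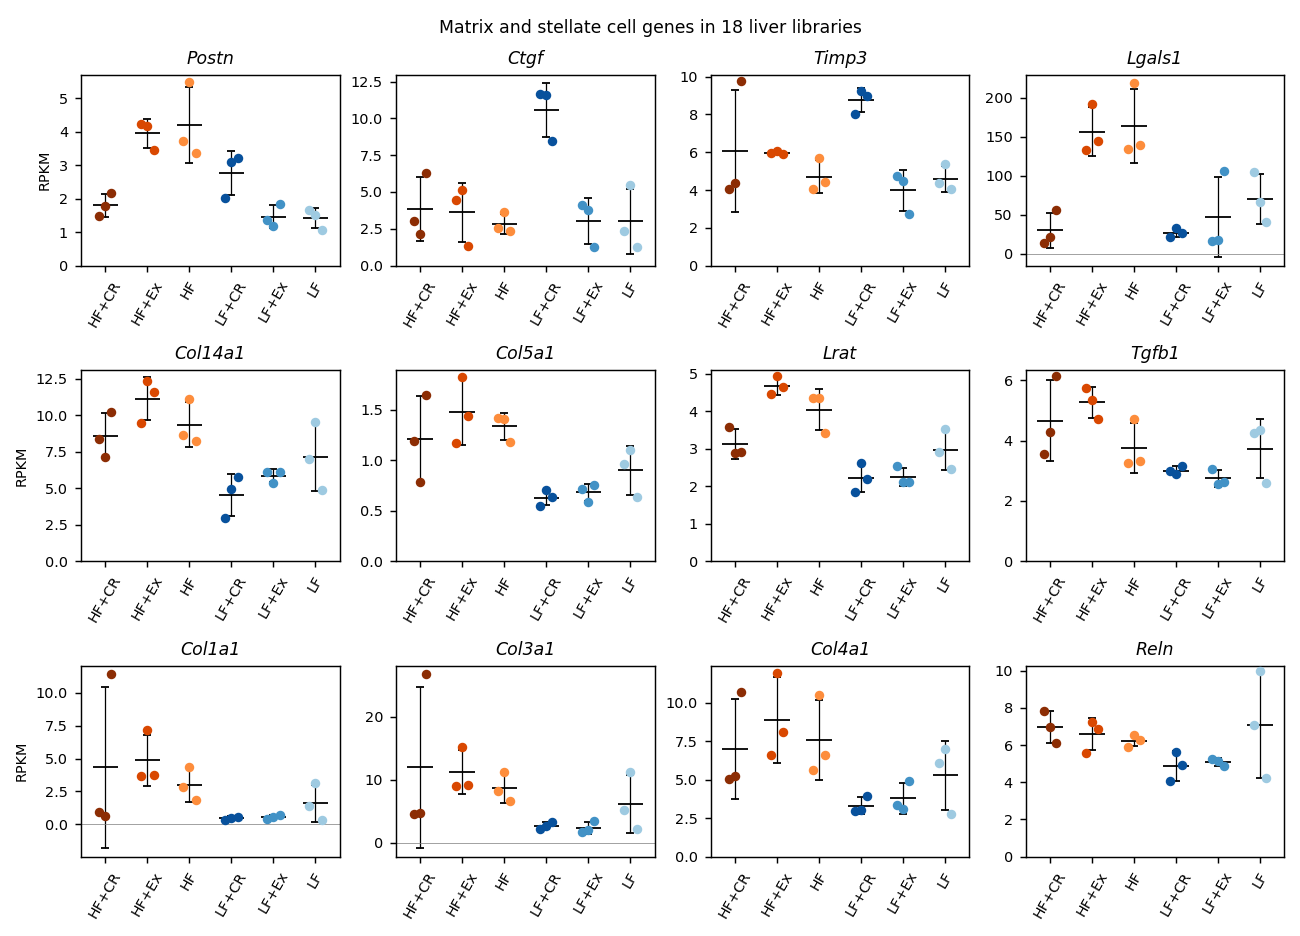
Levels in RPKM on linear axes, 1 panel per member, with groups HF+CR, HF+Ex, HF, LF+CR, LF+Ex and LF from left to right, 1 point per library, and the group mean with its SD as a bar. Postn is higher in the 3 HF libraries, at 3.36 to 5.49 RPKM, than in the 3 HF+CR libraries, at 1.48 to 2.17 RPKM, and Col1a1 and Col3a1 each have their highest value in HF+CR 3.

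Basement membrane genes encode the sheet-like matrix under endothelium and around smooth muscle. Col4a1 and Col4a2 encode the chains of the main type IV collagen and lie head to head on mouse chromosome 8. Their RefSeq promoter windows of 300 bases around the start site on GRCm38.p6 overlap by 78 bases, with start sites 21 bases apart. Both windows are shown because the genes share this stretch. Col4a1 is on the minus strand (chr8:11312777-11313076) and Col4a2 on the plus strand (chr8:11312555-11312854), and capitals mark matches on either strand to the CCAAT box, to the GC box GGGCGG and to the Smad letters CAGAC:
Col4a1: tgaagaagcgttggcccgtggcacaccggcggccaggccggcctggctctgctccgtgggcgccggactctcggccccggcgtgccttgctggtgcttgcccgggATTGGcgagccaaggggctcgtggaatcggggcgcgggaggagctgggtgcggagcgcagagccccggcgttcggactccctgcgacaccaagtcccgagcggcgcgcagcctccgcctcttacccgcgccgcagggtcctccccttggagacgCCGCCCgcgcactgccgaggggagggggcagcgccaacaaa
Col4a2: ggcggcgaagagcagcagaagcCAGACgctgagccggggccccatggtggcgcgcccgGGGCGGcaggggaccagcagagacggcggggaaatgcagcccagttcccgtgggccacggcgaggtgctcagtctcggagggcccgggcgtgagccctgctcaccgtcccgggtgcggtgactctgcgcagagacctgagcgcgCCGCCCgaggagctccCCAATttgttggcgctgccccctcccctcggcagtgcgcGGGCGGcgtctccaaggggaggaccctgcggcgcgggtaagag

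Col4a1 stood at 5.04, 5.21 and 10.7 RPKM in HF+CR, 6.58, 11.96 and 8.08 RPKM in HF+Ex and 5.65, 10.5 and 6.62 RPKM in HF livers. The libraries on the LF diet gave 2.94, 3.02 and 3.94 RPKM in LF+CR, 3.35, 3.09 and 4.92 RPKM in LF+Ex and 6.096, 6.99 and 2.76 RPKM in LF livers. Col4a2 had 3.86, 4.52 and 8.66 RPKM in HF+CR livers, 4.49, 6.38 and 5.06 RPKM in HF+Ex livers and 3.86, 6.12 and 4.003 RPKM in HF livers. It had 2.91, 2.63 and 3.73 RPKM in LF+CR livers, 2.48, 2.38 and 3.29 RPKM in LF+Ex livers and 4.27, 5.08 and 2.04 RPKM in LF livers. For both chains HF+CR and HF+Ex libraries lay above the libraries of LF+CR and LF+Ex without overlap, and HF and LF libraries overlapped. Neither chain was called in any comparison. In HF+Ex against LF+Ex the log2 differences were 1.03 ± 0.31 (adjusted p = 0.068) for Col4a1 and 0.76 ± 0.27 (adjusted p = 0.107) for Col4a2. Leaving out HF+CR 3 (adjusted p = 0.0362) or LF 3 (0.0390) brought the first of them past the threshold.

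For Col18a1 the levels were 178, 169 and 152 RPKM in HF+CR livers, 122, 163 and 147 in HF+Ex livers and 157, 159 and 161 in HF livers. On the LF diet they were 143, 119 and 147 RPKM in LF+CR livers, 181, 163 and 148 in LF+Ex livers and 186, 137 and 166 in LF livers. The chain of collagen XVIII, the source of endostatin and in liver a product of hepatocytes too, was the most abundant member by the transcript used. With all transcripts of a gene summed Fn1 was higher, at 197.5 to 286.9 RPKM, against 119.8 to 186.1 RPKM for Col18a1. The groups of Col18a1 overlapped in every comparison except HF+CR against LF+CR. There all 3 HF+CR libraries were higher, at 0.29 ± 0.13 (adjusted p = 0.186). The other basement membrane members were the nidogen Nid1, the perlecan gene Hspg2, the laminin chains Lamb1 and Lamc1, and Col15a1. Their library values ran from 1.49 to 6.49 RPKM for Nid1, 1.47 to 4.28 RPKM for Hspg2, 1.02 to 3.09 RPKM for Lamb1, 1.86 to 4.10 RPKM for Lamc1 and 0.309 to 1.65 RPKM for Col15a1. None of the 5 was called.

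Type VI collagen forms beaded microfilaments, and type XIV collagen binds to the surface of collagen fibrils. In HF+CR livers Col6a1 was at 2.58, 2.17 and 8.11 RPKM, in HF+Ex livers at 3.99, 5.52 and 4.37 RPKM and in HF livers at 4.701, 3.71 and 2.899 RPKM. LF+CR livers had 2.203, 2.24 and 2.42 RPKM, LF+Ex livers 2.38, 2.37 and 2.201 RPKM and LF livers 3.13, 5.74 and 1.97 RPKM. All HF+Ex libraries were above all LF+Ex libraries, with a log2 difference of 0.75 ± 0.33 (adjusted p = 0.188), and the remaining pairs of groups overlapped. Col6a2 ran from 0.743 to 4.55 RPKM and Col6a3 from 0.380 to 4.77 RPKM, both with HF+CR 3 highest and neither called. Levels of Col14a1 were 8.35, 7.17 and 10.2 RPKM in HF+CR livers, 9.48, 12.3 and 11.6 RPKM in HF+Ex livers and 8.68, 11.1 and 8.27 RPKM in HF livers. The values were 2.94, 4.95 and 5.75 RPKM in LF+CR livers, 6.14, 5.33 and 6.12 RPKM in LF+Ex livers and 7.02, 9.53 and 4.85 RPKM in LF livers. Col14a1 rose in HF+CR against LF+CR and in HF+Ex against LF+Ex, in both cases without overlap, by 0.81 ± 0.22 (adjusted p = 0.0269) and 0.82 ± 0.22 (adjusted p = 0.0411). In HF+CR against LF+CR the call was lost without LF+CR 1 (adjusted p = 0.138), HF+CR 1 (0.0790) or HF+CR 3 (0.0728). In HF+Ex against LF+Ex it was lost without any one of 10 libraries, all of LF+Ex and HF+Ex and LF 1, LF+CR 2, HF 1 and HF+CR 1, at adjusted p values of 0.0505 to 0.143.

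The small leucine-rich proteoglycans coat collagen fibrils. Lum stood at 2.12, 2.37 and 18.03 RPKM in HF+CR, 3.67, 5.78 and 3.33 RPKM in HF+Ex and 3.19, 4.74 and 3.62 RPKM in HF livers. The libraries on the LF diet gave 2.24, 2.82 and 1.99 RPKM in LF+CR, 1.503, 1.53 and 1.65 RPKM in LF+Ex and 1.995, 9.37 and 1.56 RPKM in LF livers. Lumican was highest in HF+CR 3 and next highest in LF 2, and in HF+Ex against LF+Ex it was higher in all 3 HF+Ex libraries, with a log2 difference of 1.01 ± 0.57 (adjusted p = 0.311). Dcn had 58.5, 56.2 and 79.1 RPKM in HF+CR livers, 70.3, 78.2 and 76.2 RPKM in HF+Ex livers and 71.2, 82.5 and 74.6 RPKM in HF livers. It had 56.3, 71.3 and 56.3 RPKM in LF+CR livers, 44.5, 49.5 and 50.1 RPKM in LF+Ex livers and 52.9, 111 and 39.5 RPKM in LF livers. Decorin binds and restrains TGF beta. The HF+Ex libraries lay above all LF+Ex libraries, at 0.63 ± 0.26 (adjusted p = 0.161). LF 2 had the highest level of all libraries, 111 RPKM, against 52.9 and 39.5 RPKM in the other LF libraries, and without LF 2 the same HF+Ex difference was called (adjusted p = 0.0233). Biglycan, Bgn, ran from 33.1 to 95.0 RPKM, with LF 2 highest and LF 3 lowest, and was not called in any comparison.

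Elastic fibres hold elastin (Eln) on a fibrillin scaffold (Fbn1), and lysyl oxidases (Lox, Loxl1, Loxl2) crosslink elastin and collagen. Lox had 0.179 RPKM in HF+CR 3, 0.0564 RPKM in HF+Ex 2, 0.0599 RPKM in HF 2, 0.00722 RPKM in LF+Ex 1 and 0.0351 RPKM in LF 2, and was listed at 0 or at a value that rounds to 0 in every other library. It was not tested. Eln, Loxl1 and Loxl2 all peaked in HF+CR 3, at 3.27, 3.02 and 2.09 RPKM. Elsewhere they reached at most 2.95, 2.18 and 1.76 RPKM. Loxl2 was higher in all HF+Ex than in all LF+Ex libraries, by 0.67 ± 0.22 (adjusted p = 0.0862), and was called without HF+CR 3 (adjusted p = 0.0227). Fbn1 ran from 0.245 to 1.42 RPKM.

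Among the matrix glycoproteins, Postn encodes periostin, a secreted protein of injured and remodelling tissue that binds integrins and collagen. It lies at chr3:54359267-54391041 on GRCm38.p6, and the transcript used holds 96.05% of the summed level of its RefSeq transcripts. For Postn the levels were 1.48, 1.77 and 2.17 RPKM in HF+CR livers, 4.23, 4.17 and 3.45 in HF+Ex livers and 3.74, 5.49 and 3.36 in HF livers. On the LF diet they were 2.02, 3.09 and 3.21 RPKM in LF+CR livers, 1.36, 1.196 and 1.85 in LF+Ex livers and 1.67, 1.505 and 1.08 in LF livers. The 3 HF libraries lay above all 3 LF libraries and above all 3 HF+CR libraries. The 3 LF+CR libraries lay above all LF libraries as well, and HF+Ex libraries lay above all LF+Ex libraries. Mean levels were 1.81 ± 0.343 RPKM in HF+CR, 3.95 ± 0.432 in HF+Ex, 4.198 ± 1.14 in HF, 2.78 ± 0.659 in LF+CR, 1.47 ± 0.339 in LF+Ex and 1.42 ± 0.307 RPKM in LF livers (SD, n = 3 each).

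Postn rose in HF against LF, by 1.09 ± 0.17 (adjusted p = 0.0195), and in HF+Ex against LF+Ex, by 1.01 ± 0.17 (adjusted p = 0.00782). CR moved it in opposite directions on the 2 diets. It fell in HF+CR against HF, at -0.87 ± 0.17 (adjusted p = 0.0229), and rose in LF+CR against LF, at 0.64 ± 0.17 (adjusted p = 0.0416). The CR by diet interaction, the CR difference on the HF diet minus that on the LF diet, was -1.51 ± 0.24 (adjusted p = 0.00645). It was called under all 28 alternatives in which it was tested, with an adjusted p of 0.00304 to 0.0348. The calls in the single comparisons were less firm. In HF against LF the call was lost without LF 1 (adjusted p = 0.0575) or HF 2 (0.0828), and in HF+CR against HF without HF 1, HF 2, HF+CR 1 or HF+CR 2 (0.0538 to 0.118). In LF+CR against LF it was lost without any one of 10 libraries, the 3 LF libraries, LF+CR 2, LF+CR 3, LF+Ex 1, HF+CR 2 and the 3 HF+Ex libraries (0.0511 to 0.148).

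The RefSeq promoter window of Postn whose start site is nearest to that of the transcript used, chr3:54360857-54361156 on the plus strand of GRCm38.p6, is shown because Postn was called in the most comparisons of all members. The window's start site is 2 bases from that of the transcript in GENCODE, and the match to TATAAA, in capitals, runs from -26 to -21 with the start site at 0. No other motif searched has these letters in the window:
Postn: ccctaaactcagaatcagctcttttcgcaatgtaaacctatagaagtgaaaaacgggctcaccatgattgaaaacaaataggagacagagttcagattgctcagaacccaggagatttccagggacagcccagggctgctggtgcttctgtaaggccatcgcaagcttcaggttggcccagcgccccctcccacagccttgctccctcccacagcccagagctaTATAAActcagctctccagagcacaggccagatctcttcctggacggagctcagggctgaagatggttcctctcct

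The 6 motifs searched on both strands were the TATA box TATAAA, the CCAAT box, the GC box GGGCGG, the Smad letters CAGAC, the AP-1 letters TGANTCA and the CArG box of serum response factor. RefSeq promoter windows were given for 29 of the 47 members, 32 windows in all. TATAAA was in 12.5% of the members' windows, against 13.6% of all 32851 windows, CCAAT in 37.5% against 37.4%, CAGAC in 46.9% against 49.6% and TGANTCA in 6.25% against 7.81%. GGGCGG was in 65.6% of the members' windows, against 35.7% of all. The CArG box was in none of them, against 1.63% of all windows. These are descriptions of letters in a window, with no test.

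In HF+CR livers Fn1 was at 116, 109.9 and 91.8 RPKM, in HF+Ex livers at 77.2, 106 and 92.2 RPKM and in HF livers at 80.8, 109 and 74.8 RPKM. LF+CR livers had 106, 103 and 120.4 RPKM, LF+Ex livers 121, 126 and 104 RPKM and LF livers 116, 85.03 and 102 RPKM. Fibronectin, which hepatocytes also secrete into plasma, was among the most abundant members. Its groups overlapped in all 7 comparisons, and the transcript used holds 41.9% of the summed level of its RefSeq transcripts. Levels of Sparc were 21.8, 21.1 and 43.5 RPKM in HF+CR livers, 22.1, 30.2 and 24.6 RPKM in HF+Ex livers and 20.2, 29.1 and 20.97 RPKM in HF livers. The values were 16.3, 17.1 and 18.02 RPKM in LF+CR livers, 13.6, 13.8 and 13.9 RPKM in LF+Ex livers and 14.98, 23.5 and 13.4 RPKM in LF livers. SPARC is a collagen-binding protein of remodelling tissue, and HF+CR and HF+Ex libraries each lay above all libraries of LF+CR and LF+Ex. The log2 difference of HF+Ex against LF+Ex was 0.84 ± 0.24 (adjusted p = 0.0565), and it was called without HF+CR 3 (adjusted p = 0.0153), without LF 2 (0.0366) or without LF 3 (0.0489).

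Mgp stood at 0.851, 1.73 and 4.71 RPKM in HF+CR, 1.44, 1.2 and 0.703 RPKM in HF+Ex and 1.34, 1.59 and 1.03 RPKM in HF livers. The libraries on the LF diet gave 4.17, 1.47 and 1.68 RPKM in LF+CR, 1.42, 0.648 and 0.634 RPKM in LF+Ex and 1.195, 5.76 and 1.36 RPKM in LF livers. Matrix Gla protein, an inhibitor of calcification made by vascular smooth muscle, was highest in LF 2, HF+CR 3 and LF+CR 1, and no comparison separated its groups. Ecm1 ran from 29.3 RPKM in HF+CR 3 to 52.0 RPKM in HF+CR 2. Thbs1, the thrombospondin that activates latent TGF beta, stayed at or under 0.883 RPKM and was not tested.

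Among the proteases and their inhibitors, Mmp2 encodes gelatinase A, Mmp14 the membrane protease that activates it, and the Timp genes encode inhibitors of metalloproteinases. Mmp2 had 0.741, 0.717 and 4.48 RPKM in HF+CR livers, 1.47, 1.82 and 1.11 RPKM in HF+Ex livers and 1.51, 1.42 and 1.23 RPKM in HF livers. It had 0.397, 0.478 and 0.4104 RPKM in LF+CR livers, 0.476, 0.435 and 0.782 RPKM in LF+Ex livers and 1.39, 3.69 and 0.466 RPKM in LF livers. HF+CR 3 and LF 2 were far above the other libraries of their groups, HF+CR libraries lay above all LF+CR libraries and HF+Ex libraries above all LF+Ex libraries, and Mmp2 was not called in any comparison. For Mmp14 the levels were 10.2, 9.06 and 10.7 RPKM in HF+CR livers, 7.77, 10.7 and 10.9 in HF+Ex livers and 8.43, 12.9 and 11.6 in HF livers. On the LF diet they were 14.9, 9.18 and 12.1 RPKM in LF+CR livers, 13.6, 11.5 and 10.3 in LF+Ex livers and 14.5, 16.9 and 9.01 in LF livers. The groups of Mmp14 overlapped in every comparison, and its log2 difference in HF+Ex against LF+Ex was -0.25 ± 0.22 (adjusted p = 0.53).

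In HF+CR livers Timp3 was at 4.04, 4.397 and 9.76 RPKM, in HF+Ex livers at 5.93, 6.08 and 5.92 RPKM and in HF livers at 4.05, 5.68 and 4.42 RPKM. LF+CR livers had 8.02, 9.25 and 8.97 RPKM, LF+Ex livers 4.72, 4.49 and 2.75 RPKM and LF livers 4.37, 5.36 and 4.03 RPKM. Timp3 rose in LF+CR against LF, where all 3 LF+CR libraries were higher, by 0.81 ± 0.23 (adjusted p = 0.0495). HF+CR 3, at 9.76 RPKM, was above all LF+CR libraries, while HF+CR 1 and HF+CR 2 were below them. The call in LF+CR against LF held without each of LF+Ex 3, HF+CR 1 and HF+CR 3, one at a time, and was lost without any one of the other 15 libraries (adjusted p = 0.0517 to 0.153). In HF+CR against LF+CR the log2 difference was -0.55 ± 0.23 (adjusted p = 0.142). Without HF+CR 3 it was -0.90 ± 0.17 and was called (adjusted p = 0.00374). Timp2 ran from 2.27 to 8.10 RPKM. Timp1, an inhibitor induced in fibrosis, had 0.460 RPKM in HF+CR 3, 1.66 and 1.997 RPKM in HF+Ex 1 and HF+Ex 2, and 0.0165 and 0.259 RPKM in HF 1 and HF 2. It was listed at 0 in every other library. With both of its transcripts summed it had 1.65 RPKM in HF+CR 3, 0.425 RPKM in HF+Ex 3, 0.537 RPKM in HF 2, 0.052 RPKM in LF+Ex 3, 0.0639 RPKM in LF 1 and 0.644 RPKM in LF 2. In the fit of summed transcripts it passed the filter and was not called in any comparison, with 1.14 ± 0.34 (adjusted p = 0.0593) in HF+Ex against LF+Ex.

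TGF beta is the main fibrogenic cytokine, and connective tissue growth factor (Ctgf, named Ccn2 in the reference table) is induced by it and by mechanical tension. Levels of Tgfb1 were 3.56, 4.27 and 6.15 RPKM in HF+CR livers, 5.73, 5.35 and 4.71 RPKM in HF+Ex livers and 3.26, 4.72 and 3.32 RPKM in HF livers. The values were 2.98, 2.88 and 3.16 RPKM in LF+CR livers, 3.05, 2.54 and 2.64 RPKM in LF+Ex livers and 4.26, 4.34 and 2.59 RPKM in LF livers. HF+CR and HF+Ex libraries lay above all libraries of LF+CR and LF+Ex. Tgfb1 rose in HF+Ex against LF+Ex, by 0.74 ± 0.18 (adjusted p = 0.0288), a call lost without any one of LF+Ex 1, LF+Ex 2, HF+Ex 1, HF+Ex 2 and HF+Ex 3 (adjusted p = 0.0775 to 0.107). Ctgf stood at 3.004, 2.17 and 6.27 RPKM in HF+CR, 4.43, 5.11 and 1.31 RPKM in HF+Ex and 2.54, 3.61 and 2.34 RPKM in HF livers. The libraries on the LF diet gave 11.7, 11.6 and 8.48 RPKM in LF+CR, 4.11, 3.76 and 1.25 RPKM in LF+Ex and 2.32, 5.49 and 1.24 RPKM in LF livers. Ctgf was at 8.48 to 11.7 RPKM in LF+CR livers and at most 6.27 RPKM in any other library. It rose in LF+CR against LF by 1.66 ± 0.44 (adjusted p = 0.0351). The call was lost without LF 1, LF 3, LF+CR 1, LF+CR 2 or LF+CR 3 (adjusted p = 0.0534 to 0.122). In HF+CR against LF+CR the difference was -1.35 ± 0.44 (adjusted p = 0.0635), not called, and it was called without LF 2 (adjusted p = 0.0424), LF 3 (0.0499), LF+Ex 3 (0.0459), HF+CR 3 (0.0274) or HF+Ex 3 (0.0457). Smooth muscle markers without members summed to 15.9 to 26.1 RPKM in LF+CR and 17.2 to 19.9 RPKM in LF livers, and their part in the Ctgf difference was not tested.

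Pdgfra and Pdgfrb encode the receptors for PDGF, the main mitogen of stellate cells. Pdgfrb had 2.09, 1.99 and 2.54 RPKM in HF+CR livers, 0.898, 2.93 and 2.09 RPKM in HF+Ex livers and 2.51, 1.703 and 0 RPKM in HF livers. It had 0.577, 1.19 and 1.37 RPKM in LF+CR livers, 1.24, 0.326 and 0.997 RPKM in LF+Ex livers and 0.947, 3.77 and 1.21 RPKM in LF livers. The listed 0 in HF 3 belongs to the transcript used, and with both Pdgfrb transcripts summed HF 3 had 2.15 RPKM. All HF+CR libraries were above all LF+CR libraries, with a difference of 0.66 ± 0.42 (adjusted p = 0.339). Pdgfra ran up to 2.45 RPKM and was listed at 0 in LF+CR 2. Neither receptor was called.

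The cytoskeletal members mark contractile and mesenchymal cells. Acta2 is the smooth muscle actin of myofibroblasts and vessels, Tagln encodes transgelin, Des encodes desmin, and Vim encodes vimentin. For Acta2 the levels were 4.93, 2.83 and 2.48 RPKM in HF+CR livers, 1.51, 1.87 and 1.01 in HF+Ex livers and 1.18, 1.46 and 2.65 in HF livers. On the LF diet they were 7.403, 2.55 and 6.18 RPKM in LF+CR livers, 3.19, 1.61 and 0.842 in LF+Ex livers and 3.72, 1.51 and 3.17 in LF livers. The highest values were in LF+CR 1, LF+CR 3 and HF+CR 1, and groups overlapped in all comparisons. Pancreatic enzyme transcripts were also highest in LF+CR 1 and HF+CR 1, but summed to 8.82 RPKM in LF+CR 3. A part of pancreatic tissue in the Acta2 levels was not tested. In HF+Ex livers, where fibrillar collagens were high, Acta2 stood at 1.01 to 1.87 RPKM, against 0.842 to 3.19 RPKM in LF+Ex livers, a log2 difference of -0.16 ± 0.36 (adjusted p = 0.831). In HF+CR livers Des was at 3.21, 2.23 and 3.91 RPKM, in HF+Ex livers at 2.54, 2.87 and 1.65 RPKM and in HF livers at 2.41, 2.44 and 2.43 RPKM. LF+CR livers had 3.58, 2.12 and 3.55 RPKM, LF+Ex livers 2.55, 1.94 and 1.59 RPKM and LF livers 3.39, 3.51 and 2.05 RPKM. Desmin overlapped between all groups compared. Levels of Vim were 13.8, 12.2 and 38.9 RPKM in HF+CR livers, 24.8, 26.8 and 21.9 RPKM in HF+Ex livers and 17.6, 27.3 and 17.6 RPKM in HF livers. The values were 13.5, 16.5 and 18.1 RPKM in LF+CR livers, 11.8, 13.5 and 10.1 RPKM in LF+Ex livers and 17.8, 25.2 and 9.23 RPKM in LF livers. The HF+Ex libraries lay above all LF+Ex libraries for vimentin, which macrophages and lymphocytes also express, with a difference of 0.9996 ± 0.36 (adjusted p = 0.116) that was called without HF+CR 3 (adjusted p = 0.0333). Tagln ran from 2.75 to 9.92 RPKM.

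Lrat encodes lecithin retinol acyltransferase, which makes the retinyl esters stored by quiescent stellate cells, and Reln encodes reelin, which in liver marks stellate cells whether or not they are activated. Lrat stood at 3.59, 2.9 and 2.91 RPKM in HF+CR, 4.46, 4.95 and 4.67 RPKM in HF+Ex and 4.36, 4.37 and 3.41 RPKM in HF livers. The libraries on the LF diet gave 1.86, 2.62 and 2.21 RPKM in LF+CR, 2.53, 2.11 and 2.102 RPKM in LF+Ex and 2.905, 3.54 and 2.45 RPKM in LF livers. All HF+Ex libraries exceeded all LF+Ex libraries, all HF+CR libraries exceeded all LF+CR libraries, and HF+Ex libraries exceeded all HF libraries by a small step. Mean levels were 3.13 ± 0.394 RPKM in HF+CR, 4.69 ± 0.246 in HF+Ex, 4.04 ± 0.548 in HF, 2.23 ± 0.3801 in LF+CR, 2.25 ± 0.246 in LF+Ex and 2.96 ± 0.543 RPKM in LF livers (SD, n = 3 each). Lrat rose in HF+Ex against LF+Ex, by 0.81 ± 0.13 (adjusted p = 0.00549), and this call held under all 28 alternatives in which it was tested (adjusted p of 0.00249 to 0.03). It was not called in HF+CR against LF+CR, at 0.36 ± 0.13 (adjusted p = 0.0842), nor in HF against LF, at 0.35 ± 0.13 (adjusted p = 0.183). Reln had 7.86, 6.97 and 6.13 RPKM in HF+CR livers, 5.599, 7.25 and 6.88 RPKM in HF+Ex livers and 5.92, 6.53 and 6.26 RPKM in HF livers. It had 4.05, 5.65 and 4.94 RPKM in LF+CR livers, 5.27, 5.14 and 4.86 RPKM in LF+Ex livers and 7.102, 9.98 and 4.23 RPKM in LF livers. For reelin HF+CR libraries lay above all LF+CR libraries and HF+Ex libraries above all LF+Ex libraries, LF 2 had the highest value, and no comparison called it.

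The promoter window of Lrat (chr3:82903925-82904224, minus strand, GRCm38.p6) is shown beside that of Postn because these members gave calls that held under every alternative in which they were tested. Capitals mark CCAAT, from -81 to -77, and GGGCGG on the other strand, from -45 to -40 and from 5 to 10:
Lrat: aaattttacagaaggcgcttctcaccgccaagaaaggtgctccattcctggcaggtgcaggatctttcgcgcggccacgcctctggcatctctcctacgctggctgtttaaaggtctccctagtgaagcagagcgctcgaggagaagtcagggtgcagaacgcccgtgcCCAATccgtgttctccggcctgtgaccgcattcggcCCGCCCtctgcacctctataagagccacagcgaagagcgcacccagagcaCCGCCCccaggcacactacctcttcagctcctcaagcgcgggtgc

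Lgals1 encodes galectin-1, a sugar-binding protein of fibroblasts, endothelium and immune cells. For Lgals1 the levels were 13.3, 21.6 and 55.8 RPKM in HF+CR livers, 133, 192 and 144 in HF+Ex livers and 134, 219 and 139 in HF livers. On the LF diet they were 21.96, 33 and 26.8 RPKM in LF+CR livers, 16.8, 18.2 and 106 in LF+Ex livers and 104, 65.99 and 40.3 in LF livers. Galectin-1 spanned the widest range among the abundant members. All HF libraries lay above all LF libraries and all HF+CR libraries, and all HF+Ex libraries above all LF+Ex libraries, of which LF+Ex 3 was far above the other LF+Ex libraries. Lgals1 fell in HF+CR against HF, at -2.61 ± 0.59 (adjusted p = 0.0411), and rose in HF+Ex against LF+Ex, at 2.23 ± 0.59 (adjusted p = 0.0415). In HF against LF it was not called, at 1.28 ± 0.59 (adjusted p = 0.286). Both calls were close to the threshold. The first held without LF 1, LF 3, HF+CR 3 or any LF+Ex library and was lost without any one of the other 12 (adjusted p = 0.0509 to 0.185). The second held without any LF library, LF+Ex 3, HF 2, HF+CR 1 or HF+CR 3, and was lost without any one of the other 11 (0.0512 to 0.175).

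HF+Ex was compared with LF+Ex to ask how the diets differ when both groups have Ex, and the module had more members called here than in any other comparison. Lrat, Postn, Tgfb1, Col14a1, Lgals1 and Col5a1 rose, 6 of the 42 tested members, and none fell, against 5.15% of all genes called in either direction and 4.13% called higher. At an unadjusted p under 0.05 there were 21 members, 20 of them higher, against 22.2% of all genes. The 3 HF+Ex libraries lay above all 3 LF+Ex libraries for 29 members and below them for 0, against 24.2% and 6.67% of all genes. The median difference was 0.64 over the members and 0.08 over all genes, and 38 members had a positive difference, against 61.5% of all genes. By role, groups did not overlap for all 4 fibrillar collagens tested, all 4 of the other collagens, all 3 small leucine-rich proteoglycans, 6 of 8 basement membrane genes and both stellate cell genes. Of the 4 cytoskeletal genes only Vim was apart in this way, and of the 5 matrix glycoproteins Postn and Sparc were. Fn1, at -0.36 ± 0.16 (adjusted p = 0.201), had the most negative difference.

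The count in HF+Ex against LF+Ex depended on which libraries set the spread. Without LF 2 and HF+CR 3, neither of which is in the groups compared, the differences are the same and 23 members were called, all higher, against 10.8% of all genes. These 2 libraries stand apart on the members' own levels. Leaving them out can therefore shrink the spread of the members more than that of other genes. The share of all genes is then not a like comparison, here and wherever 1 or both of these 2 libraries are left out. Each is also the highest of its group for 36 members. In a comparison that holds its group, leaving it out lowers the group mean of most members. Calls gained there are descriptions. In a fit of only the 6 libraries compared 21 were called, all higher, against 8.42% of all genes. Without HF+CR 1, LF+CR 1 and LF+Ex 1, which leaves 2 LF+Ex libraries, only Lrat was called, against 0.319% of all genes. Some markers of other cells moved with these groups. Macrophage markers, 15 of 16 listed genes found, summed to 432 to 515 RPKM in HF+Ex livers and 218 to 301 RPKM in LF+Ex livers. Their median difference was 0.92 over 13 tested genes, but Timd4 was lower, at 0.389 to 1.054 RPKM in HF+Ex and 1.155 to 1.835 RPKM in LF+Ex livers. Marco was at 0.341, 2.94 and 0.153 RPKM in HF+Ex and 2.40, 5.03 and 3.51 RPKM in LF+Ex livers. Vsig4 was below all LF+Ex libraries in HF+Ex 1 and HF+Ex 3 and above them in HF+Ex 2. Stellate cell markers other than members summed to 134 to 161 RPKM in HF+Ex and 80.7 to 95.8 RPKM in LF+Ex livers. Steap4 was the largest of them in every library, at 54.0 to 77.5 RPKM in HF+Ex and 24.4 to 34.0 RPKM in LF+Ex livers. The stellate cell list had a median difference of 0.43 over its 15 tested genes. The bile duct list gave no call and had a median difference of 0.04 over its 6 tested genes. Spp1 ran from 31.6 to 53.6 RPKM in HF+Ex and 14.7 to 27.8 RPKM in LF+Ex livers, while the other 11 bile duct markers summed to 8.3 to 12.3 RPKM in HF+Ex livers, against 6.57 to 16.98 RPKM in LF+Ex livers. Their part in the differences was not tested.

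**Figure D3:**
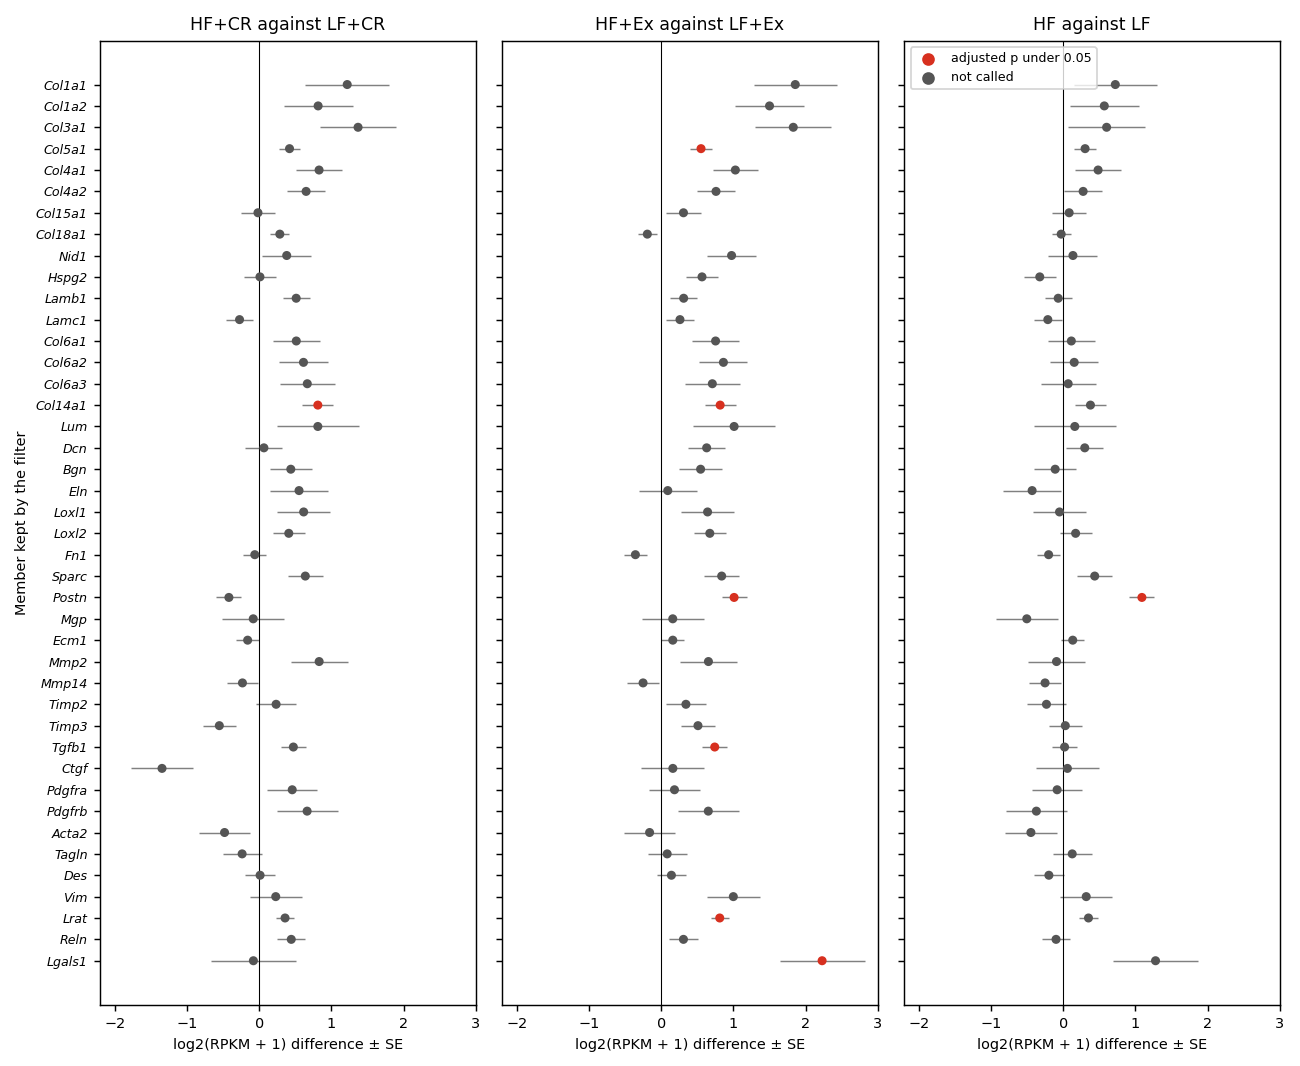
Log2 differences with SE bars from limma for each tested member in the HF against LF diet comparisons under CR, under Ex and with neither, with members ordered by role down the page and red points for called members. In HF+Ex against LF+Ex 38 of 42 points lie right of 0 and 6 are called, while HF against LF has 1 called member, Postn.

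HF+CR was compared with LF+CR in the same way under CR. Col14a1 rose and no member fell, 1 call among 42 members against 9.78% of all genes called and 4.7% called higher. The HF+CR libraries lay above all LF+CR libraries for 16 members and below them for 1, Ctgf, against 15.6% and 15.7% of all genes. The members' median difference was 0.42, and that of all genes 0.00. The largest positive differences were those of Col3a1, at 1.37 ± 0.53 (adjusted p = 0.114), and Col1a1, at 1.22 ± 0.58 (adjusted p = 0.194), and these rest on HF+CR 3. Without that library they were 0.60 ± 0.41 (adjusted p = 0.376) and 0.29 ± 0.37 (0.672). Ctgf and Timp3 were then called, both lower, and Col14a1 was not, against 11.9% of all genes called. With median-of-ratios scaling 6 members were called, 5 higher and 1 lower, against 12.4% of all genes. Macrophage markers summed to 249 to 483 RPKM in HF+CR livers and 162 to 225 RPKM in LF+CR livers, and stellate cell markers other than members to 105.5 to 149.6 RPKM in HF+CR livers and 68.6 to 85.5 RPKM in LF+CR livers. Their part was not tested.

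HF was compared with LF to show the diet difference without CR or Ex. Postn rose and none fell, 1 call among 42 members against 0.406% of all genes. HF libraries lay above all LF libraries for 3 members, Postn, Lgals1 and Col5a1, and below them for 0, against 7.97% and 10.9% of all genes. The median difference was 0.08 over the members and -0.02 over all genes. Fibrillar collagens had differences of 0.30 to 0.72, and none of the 4 was called. Mgp, at -0.504 ± 0.43 (adjusted p = 0.593), and Acta2, at -0.45 ± 0.36 (adjusted p = 0.564), had the most negative differences. Without LF 2 and HF+CR 3, Dcn (0.72 ± 0.14, adjusted p = 0.0270) and Sparc (0.67 ± 0.15, 0.0454) were called higher beside Postn, 3 members against 1.35% of all genes. LF 2 had the highest LF level of Dcn, at 111 RPKM, and of Sparc, at 23.5 RPKM. Leaving it out lowers both LF means, so the added calls are descriptions. Macrophage markers summed to 305 to 657 RPKM in HF and 199 to 486 RPKM in LF livers. Spp1 ran from 41.5 to 72.9 RPKM in HF and 14.7 to 138 RPKM in LF livers, where LF 2 was highest, and the other 11 bile duct markers summed to 7.98 to 12.3 RPKM in HF and 8.2 to 22.5 RPKM in LF livers. Their part was not tested.

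LF+CR was compared with LF to show what went with CR on the LF diet. Ctgf, Timp3 and Postn rose and none fell, 3 calls among 42 members against 6.5% of all genes, 3.01% higher and 3.49% lower. At an unadjusted p under 0.05 there were 6 members, 3 of them lower, against 22.4% of all genes. Most other members had lower values in LF+CR livers, without a call. The median difference was -0.24 over the members, against 0.00 over all genes. A positive difference was found in 10 members, against 50% of all genes, and a negative one in 32 members. These included all 4 fibrillar collagens tested, all 4 of the other collagens, all 3 small leucine-rich proteoglycans, all 3 elastic fibre and crosslinking genes and both stellate cell genes, with differences of -0.76 to -0.01. The groups did not overlap for 3 members with higher and 1 with lower values, Lgals1 at -1.25 ± 0.59 (adjusted p = 0.226), against 11.6% and 11.7% of all genes. Mmp2, at -0.83 ± 0.40 (adjusted p = 0.229), had the next most negative difference. Without LF 3 Bgn, Col14a1, Lamb1 and Reln were called, all lower, with differences of -0.93 to -0.69 and adjusted p values of 0.00718 to 0.0405, against 8.33% of all genes, and Ctgf, Timp3 and Postn were not. LF 3 was the lowest LF library for 37 members, these 4 among them, so leaving it out raises their LF means. The 4 calls are therefore a description, and the share of all genes is not a like comparison. Without the 3 libraries with pancreatic transcripts, 1 of them LF+CR 1, only Postn was called, against 2.08% of all genes. Macrophage markers summed to 162 to 225 RPKM in LF+CR and 199 to 486 RPKM in LF livers, with a median difference of -0.61 over 13 tested genes. Stellate cell markers other than members summed to 68.6 to 85.5 RPKM in LF+CR and 84.0 to 132 RPKM in LF livers, and portal fibroblast markers other than members to 4.91 to 6.79 RPKM in LF+CR and 4.58 to 12.5 RPKM in LF livers. The part of these cells in the differences was not tested.

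HF+CR was compared with HF to show what went with CR on the HF diet. Postn and Lgals1 fell and none rose, 2 calls among 42 members against 1.4% of all genes called and 0.772% called lower. These were also the 2 members whose groups did not overlap, both with lower values in HF+CR livers, against 8.29% of all genes with lower and 10.7% with higher values. Members had a median difference of 0.04, against 0.01 for all genes. The most positive differences were those of Acta2, at 0.67 ± 0.36 (adjusted p = 0.429), and Pdgfrb, at 0.59 ± 0.42 (adjusted p = 0.575), the second with the listed 0 in HF 3. With its transcripts summed Pdgfrb was at 0.10 ± 0.25 (adjusted p = 0.906). For fibrillar collagens the pooled values hide a split: HF+CR 1 and HF+CR 2 lay below all HF libraries for Col1a1, Col1a2 and Col3a1, and HF+CR 3 above all of them. Without LF 2 and HF+CR 3 Col1a2 was called lower as well (-1.04 ± 0.23, adjusted p = 0.0243), 3 members against 3.77% of all genes. That call rests on leaving out HF+CR 3, which had 11.4 RPKM of Col1a2, so it is a description. Without the libraries with pancreatic transcripts none was called, against 0.27% of all genes. Macrophage markers summed to 249 to 483 RPKM in HF+CR and 305 to 657 RPKM in HF livers, with a median difference of -0.35 over 13 tested genes and no call. Whether these cells had a part in the Lgals1 difference was not tested.

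The comparisons of Ex with no Ex called no member. In LF+Ex against LF 0 of 42 members and 0% of all genes were called, and at an unadjusted p under 0.05 there were 3 members, Hspg2, Lrat and Timp2, all lower, against 9.12% of all genes in either direction. The median difference was -0.35 over the members and -0.13 over all genes. A negative difference was found in 37 members and a positive one in 5, while 20.9% of all genes had a positive one. With median-of-ratios scaling the median over all genes was -0.01. Lgals1, at -0.998 ± 0.59 (adjusted p = 0.56), and Col3a1, at -0.91 ± 0.53 (adjusted p = 0.559), had the most negative differences, and Fn1, at 0.22 ± 0.16 (adjusted p = 0.6), the most positive. Loxl2 and Timp2 were lower in all LF+Ex than in all LF libraries, 2 members, and none was higher, against 11.4% and 0.83% of all genes.

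In HF+Ex against HF 0 members and 0% of all genes were called, and 1 member, Tgfb1, had an unadjusted p under 0.05, against 3.64% of all genes. Members had a median difference of 0.13 and all genes one of -0.02. Lrat and Timp3 were higher in all HF+Ex than in all HF libraries, 2 members, and none was lower, against 2.96% and 8.06% of all genes. Col1a1, at 0.55 ± 0.58 (adjusted p = 1), and Pdgfrb, at 0.43 ± 0.42 (adjusted p = 1), had the most positive differences, and Col18a1, at -0.15 ± 0.13 (adjusted p = 1), and Acta2, at -0.14 ± 0.36 (adjusted p = 1), the most negative. The Pdgfrb value rests on the listed 0 in HF 3, and with its transcripts summed the difference was 0.00 ± 0.25 in HF+Ex against HF.

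The interactions test whether the differences of CR or Ex depended on diet. In the CR by diet interaction 1 of 42 members was called, Postn, with a lower value, against 1.02% of all genes. The median was 0.32 over the members and 0.01 over all genes. Without LF 2 and HF+CR 3 Dcn (-0.81 ± 0.19, adjusted p = 0.0438) and Timp3 (-1.03 ± 0.23, 0.0370) were called lower beside Postn, against 2.61% of all genes. For both genes LF 2 was the highest LF library and HF+CR 3 the highest HF+CR library. Leaving them out lowers these group means, so the added calls are descriptions. In the Ex by diet interaction 0 members and 0% of all genes were called, and 3 members, Hspg2, Lrat and Tgfb1, had an unadjusted p under 0.05, all higher, against 5.07% of all genes. The median was 0.49 over the members and 0.11 over all genes, and 38 members had a positive value, against 67.5% of all genes. The call of 6 members in HF+Ex against LF+Ex and of 1 in HF against LF is therefore not matched by a called difference between the 2 diet effects. The comparisons with a group in common share its libraries and are not independent.

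**Figure D4:**
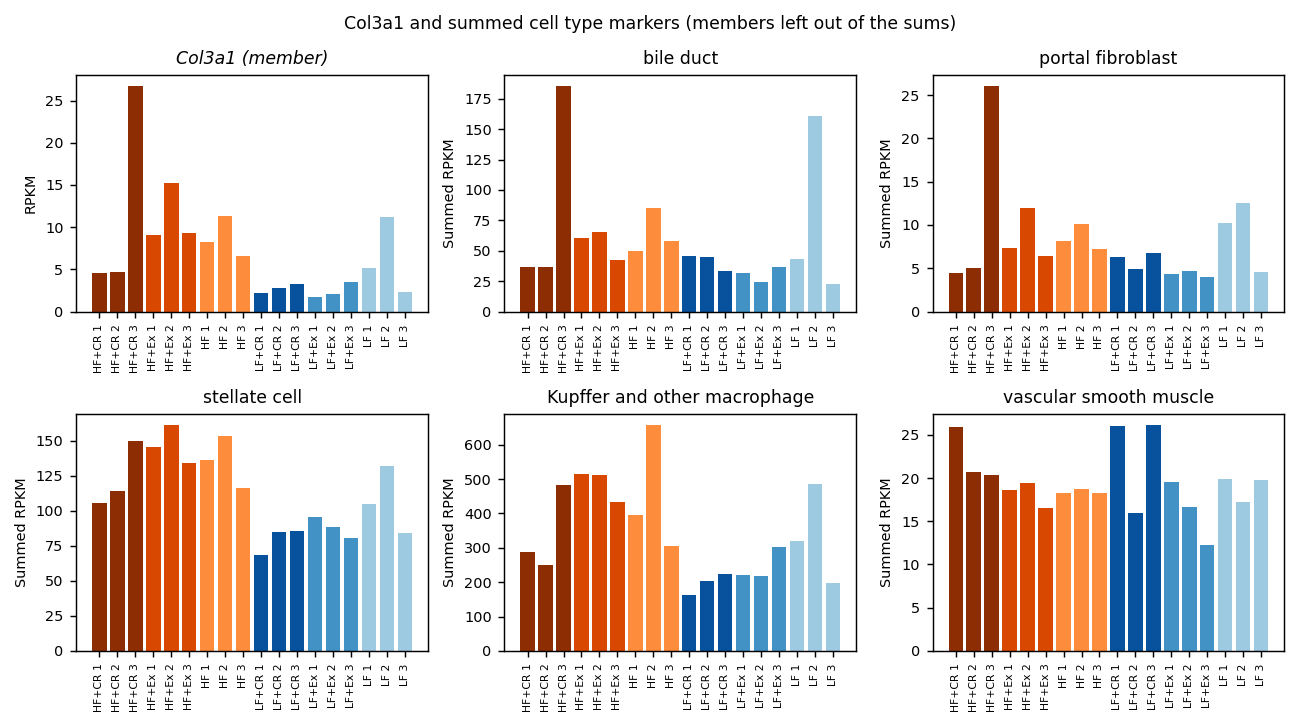
Col3a1 and the summed levels of cell type marker lists in RPKM, 1 panel each, with groups HF+CR, HF+Ex, HF, LF+CR, LF+Ex and LF from left to right and 1 bar per library. Macrophage markers sum to 432 to 515 RPKM in HF+Ex and 218 to 301 RPKM in LF+Ex livers, and bile duct markers are highest in HF+CR 3, at 186 RPKM, and in LF 2, at 161 RPKM.

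Stellate cell markers outside the module were counted with the same test. Of 18 listed stellate cell markers, 15 were not members. In HF+Ex against LF+Ex the listed markers called were Lrat itself, Rgs5, a regulator of G protein signalling in pericytes (0.78 ± 0.17, adjusted p = 0.0234), and Steap4, a metalloreductase (1.15 ± 0.19, 0.00671). Steap4 was also called in HF+CR against LF+CR (0.89 ± 0.19, 0.00867) and Rgs5 in HF against LF (0.85 ± 0.17, 0.0455), all of them higher. Not every marker was higher. Vipr1, not called, was at 7.95, 8.23 and 5.76 RPKM in HF+CR and 8.99, 9.58 and 9.11 RPKM in LF+CR livers. The list's median difference was 0.37 in HF+CR against LF+CR and 0.04 in HF against LF. These are called members of the list by the same test over all genes, and no test of the list was made.

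Of 24 genes that fold, cleave or crosslink collagen and other matrix proteins 14 were tested, and calls were made in both directions. Ppib, a prolyl isomerase of the collagen folding complex, was at 229.8, 268 and 245 RPKM in HF+CR livers, 155, 159 and 140.0 RPKM in HF livers and 178, 182 and 164 RPKM in LF+CR livers. It rose in HF+CR against HF, by 0.71 ± 0.13 (adjusted p = 0.0195), and in HF+CR against LF+CR, by 0.50 ± 0.13 (0.0261). Bmp1, the protease that removes the C-propeptide of procollagen, fell in LF+CR against LF, at -0.54 ± 0.14 (adjusted p = 0.0385), and in HF+Ex against LF+Ex, at -0.59 ± 0.14 (0.0322), where several collagens lay higher. Its levels were 15.2, 19.5 and 19.9 RPKM in HF+Ex livers and 32.4, 24.8 and 26.4 RPKM in LF+Ex livers. Tgm2, the tissue transglutaminase that crosslinks matrix proteins, fell in LF+CR against LF, at -0.999 ± 0.24 (adjusted p = 0.0227), with 32.0, 25.4 and 29.4 RPKM in LF+CR and 71.5, 71.9 and 39.0 RPKM in LF livers.

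Among 40 further matrix genes 19 were tested. Col5a3, another chain of type V collagen, fell in HF+Ex against LF+Ex, at -0.60 ± 0.15 (adjusted p = 0.0310), while Col5a1 rose there. It had 4.46, 6.02 and 5.54 RPKM in HF+Ex and 9.10, 7.99 and 8.69 RPKM in LF+Ex livers, and it also fell in LF+CR against LF, at -0.68 ± 0.15 (0.0128). The nidogen Nid2 rose in LF+CR against LF, at 0.84 ± 0.21 (0.0308). In HF+CR against LF+CR the collagen-anchoring proteoglycan Prelp rose, at 0.65 ± 0.19 (0.0446), and the transmembrane collagen gene Col13a1 fell, at -0.56 ± 0.16 (0.0373).

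Of 26 genes of TGF beta and PDGF signalling 18 were tested, and none was called in any comparison or interaction. Of 24 matrix receptors 16 were tested. Cd44, the hyaluronan receptor of leukocytes and mesenchymal cells, rose in HF+Ex against LF+Ex by 1.05 ± 0.22 (adjusted p = 0.0219) and Sdc4, a syndecan, fell, at -0.58 ± 0.14 (0.0291). Itga8, the integrin subunit of stellate cells and smooth muscle, rose in HF+CR against LF+CR, by 0.97 ± 0.28 (0.0380), with 1.13, 0.826 and 3.84 RPKM in HF+CR livers, against 0.304, 0.384 and 0.394 RPKM in LF+CR livers. Of 25 matrix proteases 11 were tested. Plau, the urokinase plasminogen activator (0.88 ± 0.20, adjusted p = 0.0255), Mmp12, the macrophage elastase (2.06 ± 0.51, 0.0322), and Ctss, the cathepsin S of macrophages (1.56 ± 0.42, 0.0438), rose in HF+Ex against LF+Ex. Macrophage marker sums were higher there too, though the marker Timd4 was lower, as were Marco and Vsig4 in HF+Ex 1 and HF+Ex 3. Mmp15, a membrane protease, rose in HF+CR against LF+CR, by 0.76 ± 0.21 (0.0310).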

How the data were processed

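PolyA RNA of whole liver was sequenced in 18 libraries, 3 in each of 6 groups, and groups and replicate numbers come from the sample titles. The authors deposited values in RPKM for each RefSeq transcript, made, per the submitters' processing notes, with TopHat 1.4.1, Cufflinks 1.3.0 and mm10. The annotation version is not given in the sources used here. No counts were used, so depth was only estimated from the steps between low values. Of 30582 transcripts 30003 took their symbol from the RefSeq table for GRCm38.p6, 180 took it from GENCODE, and 399 had none. For 9 of the 47 members the most abundant of several transcripts was used.

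Values were tested as log2(RPKM + 1) with limma 3.58.1 in R 4.3.3, in 1 model of 6 group means with an intensity trend. Tests were two-sided with Benjamini-Hochberg adjustment over the 10356 genes kept at 1 RPKM or more in at least 3 libraries, and the scripts were tested on simulated data. Exact zeros were kept as deposited. The members, the lists of pathway and marker genes and the libraries left out together were chosen with earlier results of these data known. Library values are given for members called in any comparison, for those with the 2 most positive and 2 most negative differences in a comparison, and for 23 members chosen by role. The settings varied were the pseudocount (0.1), the filter (none, or a mean of 5 RPKM), median-of-ratios scaling, quantile normalization, no intensity trend, only the groups compared, a replicate block, summed transcripts of a gene, and libraries left out. Cd68 and Col12a1, on the marker and matrix lists, matched no transcript, and the value of 1 marker gene is not reported here. Promoter windows are from RefSeq, GRCm38.p6.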

Additional observations from a re-analysis of the deposited data

Results flagged for a closer look

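The CR difference of Postn depended on diet. On the log2(RPKM + 1) scale the CR by diet interaction was -1.51 ± 0.24, with a limma adjusted p of 0.00645, because Postn was lower in all 3 HF+CR than in all 3 HF libraries and higher in all 3 LF+CR than in all 3 LF libraries. The test of the difference between the 2 CR effects singled it out. The interaction stayed called when any 1 of the 18 libraries was left out, with values of -1.66 to -1.34.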

How the results depend on the processing

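No called member changed direction under any alternative run. The filter at a mean of at least 5 RPKM leaves out Postn, Ctgf, Lrat, Tgfb1 and Col5a1, whose means were 2.60, 4.48, 3.22, 3.86 and 1.04 RPKM. Their calls could not be made under it, and the lower counts given for it below include this. Counts of called members that moved by over 1.5 times were as follows. In HF against LF (1 member) they were 0 with a mean of at least 5 RPKM, 0 with only the groups compared and 3 without LF 2 and HF+CR 3. Of all genes 0.406% were called in the main fit, 0% with only the groups compared and 1.35% without LF 2 and HF+CR 3. In LF+CR against LF (3 members) the members' counts were 0 with no filter and 1 each with a pseudocount of 0.1, a mean of at least 5 RPKM, only the groups compared, the replicate block and without HF+CR 1, LF+CR 1 and LF+Ex 1. The share of all genes was 6.5% in the main fit and 1.93%, 5.71% and 2.08% in the last 3 of these settings. In HF+CR against HF (2 members) the members' counts were 0 with no filter, only the groups compared and without the 3 libraries HF+CR 1, LF+CR 1 and LF+Ex 1. They were 1 with a mean of at least 5 RPKM and with the replicate block. The share of all genes was 1.4% in the main fit, 0.28% with only the groups compared, 0.27% without the 3 libraries and 0.975% with the block. In HF+CR against LF+CR (1 member) the members' counts were 0 with no filter, only the groups compared and without the 3 libraries, 6 with median-of-ratios scaling, 3 with quantile normalization and 3 without LF 2 and HF+CR 3. The share of all genes was 9.78% in the main fit, 3.67% with only the groups compared and 1.26% without the 3 libraries. It was 12.4% with median-of-ratios scaling and 13.5% without LF 2 and HF+CR 3. In HF+Ex against LF+Ex (6 members) the members' counts were 2 with no filter, 2 with a mean of at least 5 RPKM, 21 with only the groups compared, 3 with the replicate block, 1 without the 3 libraries and 23 without LF 2 and HF+CR 3. The share of all genes was 5.15% in the main fit and 8.42%, 4.4%, 0.319% and 10.8% in the last 4 of these settings. In the CR by diet interaction (1 member) the members' counts were 0 with a mean of at least 5 RPKM, which leaves out Postn, and 3 without LF 2 and HF+CR 3. The share of all genes was 1.02% in the main fit and 2.61% without LF 2 and HF+CR 3.

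With 1 library left out at a time, counts ran from 0 to 1 in HF against LF, 0 to 4 in LF+CR against LF, 0 to 2 in HF+CR against HF, 0 to 4 in HF+CR against LF+CR, 2 to 14 in HF+Ex against LF+Ex and 1 to 1 in the CR by diet interaction. They were 0 to 0 in LF+Ex against LF, in HF+Ex against HF and in the Ex by diet interaction. The share of all genes moved too. In HF+Ex against LF+Ex it was 5.15% with all libraries, 8.16% without HF+CR 3 and 6.76% without LF 2. Same-numbered libraries of different groups did not deviate together, with correlations of -0.49 to 0.32 over 45 pairs, of which 10 passed 0.1, so the numbers are not taken to pair the samples. Except where stated the cause of a moved count was not tested. RPKM without counts gives no counting interval, and members under 1 RPKM are close to the limit of these values.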

Other observations

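Several markers of other liver cells were called. Among hepatocyte markers Tat, tyrosine aminotransferase, had 418, 270.2 and 387 RPKM in HF+CR livers, 194, 168 and 185 RPKM in HF livers, 1432, 1168 and 890.1 RPKM in LF+CR livers and 290.2, 277.5 and 281 RPKM in LF livers. Tat rose in HF+CR against HF by 0.95 ± 0.22 (SE, limma adjusted p = 0.0495) and in LF+CR against LF by 2.01 ± 0.22 (0.000207). Cps1, of the urea cycle, rose in the same comparisons, by 1.03 ± 0.19 (0.0173) and 0.98 ± 0.19 (0.00648), and Ttr rose in LF+CR against LF by 0.48 ± 0.13 (0.0373). Tat, Cps1 and the hepatocyte transcription factor Hnf4a fell in HF+CR against LF+CR and in HF+Ex against LF+Ex, with Hnf4a at -0.52 ± 0.12 (0.0149) and -0.53 ± 0.12 (0.0257). Apoa1 rose in HF+CR against LF+CR by 0.94 ± 0.18 (0.0051). No difference is given for Alb, since it is listed at 0 in most libraries. Ptprb, a receptor phosphatase of endothelium, had 9.07, 8.95 and 9.29 RPKM in LF+CR livers and 6.93, 6.88 and 6.41 RPKM in LF livers, and rose in LF+CR against LF by 0.38 ± 0.11 (0.0453). Cd5l, a secreted protein of Kupffer cells, had 129, 102 and 110.4 RPKM in HF+Ex livers and 42.5, 42.6 and 61.4 RPKM in LF+Ex livers, and rose in HF+Ex against LF+Ex by 1.22 ± 0.31 (0.0370). It was the only one of 13 tested macrophage markers called there. Nkg7, a granule protein of cytotoxic lymphocytes, rose in the same comparison by 1.11 ± 0.30 (0.0428). Cd79b, part of the B cell receptor, had 1.63, 0.51 and 1.997 RPKM in HF+CR livers and 0.124, 0.141 and 0.115 RPKM in LF+CR livers, and rose in HF+CR against LF+CR by 1.02 ± 0.25 (0.0163). Its level in every HF+CR library exceeded that in every LF+CR library, although all values are low.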
